A study of Mus musculus with 16 samples.

Results

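The matrix metalloproteinases described here are 10 genes, Mmp2, Mmp3, Mmp9, Mmp10, Mmp11, Mmp12, Mmp13, Mmp14, Mmp16 and Mmp19. They were taken by gene name from a table of 49315 genes measured by bulk RNA sequencing in mouse intervertebral discs, and all 10 were found. All 10 also passed the filter for testing, a level of 1 TPM in at least 3 of the 16 libraries, as did 24188 genes in all. Mmp9, Mmp10 and Mmp12 stayed below 1 TPM in every mouse with intact discs, so they passed it only through mice with injured discs. The unit TPM corrects the reads of a transcript for gene length and scales each library to the same total, so levels can be compared between genes. Each library came from 1 mouse, with 4 tail discs pooled. Of the wild-type mice, 3 had intact and 4 had injured discs. Of the mice of genotype Adam8EQ, called mutants below, 4 had intact and 5 had injured discs. The title of the series names the strain DBA for the comparison with the Adam8 mutant. The labels used here do not give the kind of injury, the time after it, the age or the sex of the mice, or the change that the mutant allele carries. Adam8 itself encodes a membrane-bound metalloprotease of a related family.

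Matrix metalloproteinases are zinc-dependent enzymes that cut collagens, proteoglycans and other proteins of the extracellular matrix. Most are made as inactive proenzymes, are activated by removal of a propeptide, and are held in check by the tissue inhibitors of metalloproteinases (TIMPs). In the disc, whose mechanics depend on aggrecan and fibrillar collagen, they are known for their part in matrix turnover and degeneration. Transcript levels, which were measured here, say nothing of whether an enzyme was activated.

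The intact discs carried the RNA of disc cells. Summed markers of the nucleus pulposus and notochord stood at 3329 to 6431 TPM, those of annulus fibrosus and tendon at 2490 to 3198 TPM and those of cartilage at 11219 to 14980 TPM in the 7 intact libraries. Implied depth, reckoned from the steps of the TPM values, was 10220097 to 24881470 reads per library. The library names of the mutants fall into 2 series, one starting with A8 (mutants 1 and 2 of both treatments) and one with M (injured mutants 3, 4 and 5, intact mutants 3 and 4). All wild-type names start with D, so this naming, which the labels do not explain, cannot be told apart from genotype between wild type and mutants. The numbers within the names form separate blocks for intact and injured wild-type mice and for intact and injured A8 mutants. In the M series they run on across treatments. Injured wild-type mice 1 and 2 carry adjacent numbers, and so do mice 3 and 4. The labels do not explain these blocks, which cannot be told apart from injury in the wild type and A8 mutants. In bulk tissue, a change in the number of cells of one type and a change in RNA per cell cannot be told apart.

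Of the 10 genes, 4 lie within 427.0 kb on chromosome 9 (GRCm38, 7272514 to 7699585), where 10 Mmp genes stand side by side. These are Mmp13 (7272514 to 7283331), Mmp12 (7344381 to 7369499), Mmp3 (7445822 to 7455975) and Mmp10 (7502352 to 7510240), all on the plus strand. The other 6 lie apart, Mmp9 on chromosome 2 (164940780 to 164955850), Mmp16 on chromosome 4 (17852893 to 18119145), Mmp2 on chromosome 8 (92827291 to 92853420), Mmp11 on chromosome 10 (75923222 to 75936496), Mmp19 on chromosome 10 (128790910 to 128800824) and Mmp14 on chromosome 14 (54431612 to 54445364). Mmp11 is on the minus strand and the other 5 are on the plus strand. All 10 are annotated as protein coding.

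The promoters of the 4 genes in the chromosome 9 cluster are shown because 3 of these genes rose in injured mutants and all 4 were high in the same mice, and that of Mmp14 is shown as one from outside it. RefSeq promoter sequences of GRCm38.p6 were at hand for 6 of the 10 genes, with 7 start sites. None was at hand for Mmp2, Mmp9, Mmp16 and Mmp19, so Mmp19, which also rose in injured mutants, could not be searched. Each line gives the 120 bases before the start site, 5′ to 3′ on the strand of the gene (plus in each case), with any match to the AP-1 motif TGAGTCA or its reverse complement TGACTCA in capitals. AP-1 is the dimer of Fos and Jun proteins. The stretches are chr9:7445702-7445821 for Mmp3, chr9:7502222-7502341 for Mmp10, chr9:7272394-7272513 for Mmp13, chr9:7347254-7347373 for the downstream of the pair of Mmp12 starts, and chr14:54431478-54431597 for Mmp14.
Mmp3: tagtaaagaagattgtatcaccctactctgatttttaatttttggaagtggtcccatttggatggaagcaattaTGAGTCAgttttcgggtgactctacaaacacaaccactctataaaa
Mmp10: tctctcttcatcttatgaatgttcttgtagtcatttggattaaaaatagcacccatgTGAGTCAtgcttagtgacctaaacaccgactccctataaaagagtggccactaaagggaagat
Mmp13: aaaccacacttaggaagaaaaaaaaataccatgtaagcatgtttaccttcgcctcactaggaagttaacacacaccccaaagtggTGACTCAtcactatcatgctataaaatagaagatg
Mmp12: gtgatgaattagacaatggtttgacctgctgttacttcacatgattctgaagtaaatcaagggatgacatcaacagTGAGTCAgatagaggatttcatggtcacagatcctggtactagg
Mmp14: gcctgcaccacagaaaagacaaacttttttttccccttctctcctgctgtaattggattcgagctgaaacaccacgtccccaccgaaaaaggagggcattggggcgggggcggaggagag

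The window searched ran from 250 bases before the start to 50 bases after it. On either strand, the AP-1 motif was found once each for Mmp3, Mmp10, Mmp13 and the downstream start of Mmp12. Counting from the start site, its first base lay at -46 for Mmp3, -63 for Mmp10, -35 for Mmp13 (as the reverse complement) and -44 for Mmp12. It was not found for Mmp14, for Mmp11 or for the upstream start of Mmp12. Among all 32851 mouse promoters of the table, 4.46% held it. The motif TATAAA, searched on the given strand only, was found for Mmp3, Mmp10 and Mmp13 and is held by 7.59% of promoters. The motif AGGAAG, of the kind that ETS proteins bind, was searched on both strands and found for Mmp3, Mmp13, Mmp14 and the upstream start of Mmp12, against 29.5% of promoters. No matches of different motifs overlapped. These matches describe the letters only, and binding was not measured.

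In intact discs the 10 transcripts together made up 0.0184% to 0.0277% of all TPM, and Mmp3 and Mmp14 made up most of that. In injured discs the sum was higher in most mice, and Mmp3 held most of it there. The summed level of the 10 was 276.7, 227.9 and 184.1 TPM in the 3 intact wild-type mice and 202.8, 206.0, 250.1 and 203.5 TPM in the 4 intact mutants. It was 238.0, 444.5, 9862 and 7878 TPM in injured wild-type mice 1 to 4, and 7454, 16651, 9013, 1990 and 1890 TPM in injured mutants 1 to 5. All 5 injured mutants therefore stood above every intact mouse, while injured wild-type mouse 1 lay within the range of the intact wild-type mice. Mmp3 held 32.7% to 48.4% of the sum in the 7 intact libraries. Its share was 38.8%, 61.8%, 88.5% and 93.1% in injured wild-type mice 1 to 4 and 86.1% to 97.0% in the injured mutants. Mmp14 held 33.2% to 52.7% of the sum in intact discs and 1.57% to 7.9% in injured mutants, although its own level was no lower there. Without Mmp3, the sum was 95.13 to 168.2 TPM in intact discs, 145.8 to 1137 TPM in injured wild-type and 197.5 to 1328 TPM in injured mutant discs.

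**Figure D1:**
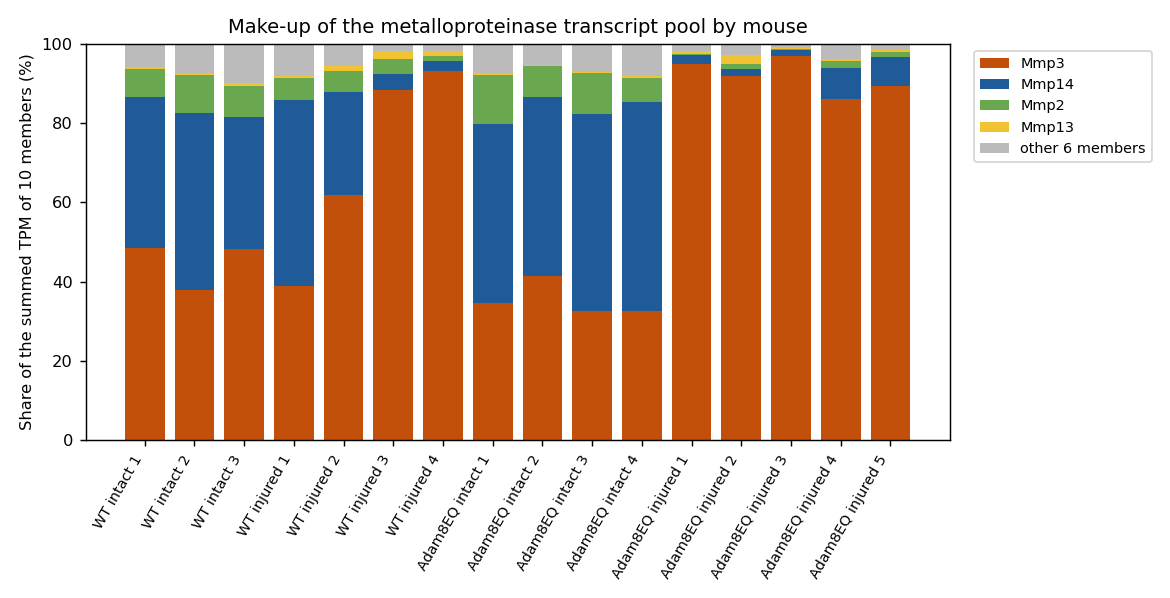
Share of each gene in the summed TPM of the 10 matrix metalloproteinases (vertical axis, percent), 1 bar per mouse, with 6 low genes joined. Mmp3 and Mmp14 share the bar in intact discs, and Mmp3 fills 86.1% to 97.0% of it in the 5 injured mutants.

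Across the 5 comparisons, members were called only for injury in mutants, where Mmp3, Mmp12, Mmp13 and Mmp19 rose. That is 4 of 10, against 30.8% of all tested genes called in this comparison (adjusted p under 0.05, limma with Benjamini-Hochberg adjustment over all tested genes) and 13.1% called as higher. The median change over the 10 was 2.38 on the scale of log2(TPM + 1), against -0.08 over all tested genes. Mmp9, Mmp10 and Mmp12 passed the filter only through injured mice, so their rise is partly set by it. The 10 were also chosen with earlier results of these data known. The counts and medians given here therefore describe the 10 and are no test of them as a set. For injury in the wild type 0 of 10 passed, against 0.116% of all genes, and the median change was 1.88 against 0.01. At an unadjusted p under 0.05 there were 5 members in the wild type (Mmp3, Mmp12, Mmp13, Mmp14 and Mmp19), where 17.2% of genes reached that level, and 8 in mutants (all but Mmp2 and Mmp11), where 42.0% did. In both genotypes 8 of the 10 had a higher mean after injury, the exceptions being Mmp11 and Mmp16. Within the mutants of the A8 series alone (2 injured and 2 intact mice) 5 members were called, against 14.8% of all tested genes. Within those of the M series alone (3 injured and 2 intact mice) 0 were, against 3.0% of genes. All changes below are differences in mean log2(TPM + 1) with the standard error of the fit, and on that scale the added 1 TPM shrinks the change of genes near 0.

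**Figure D2:**
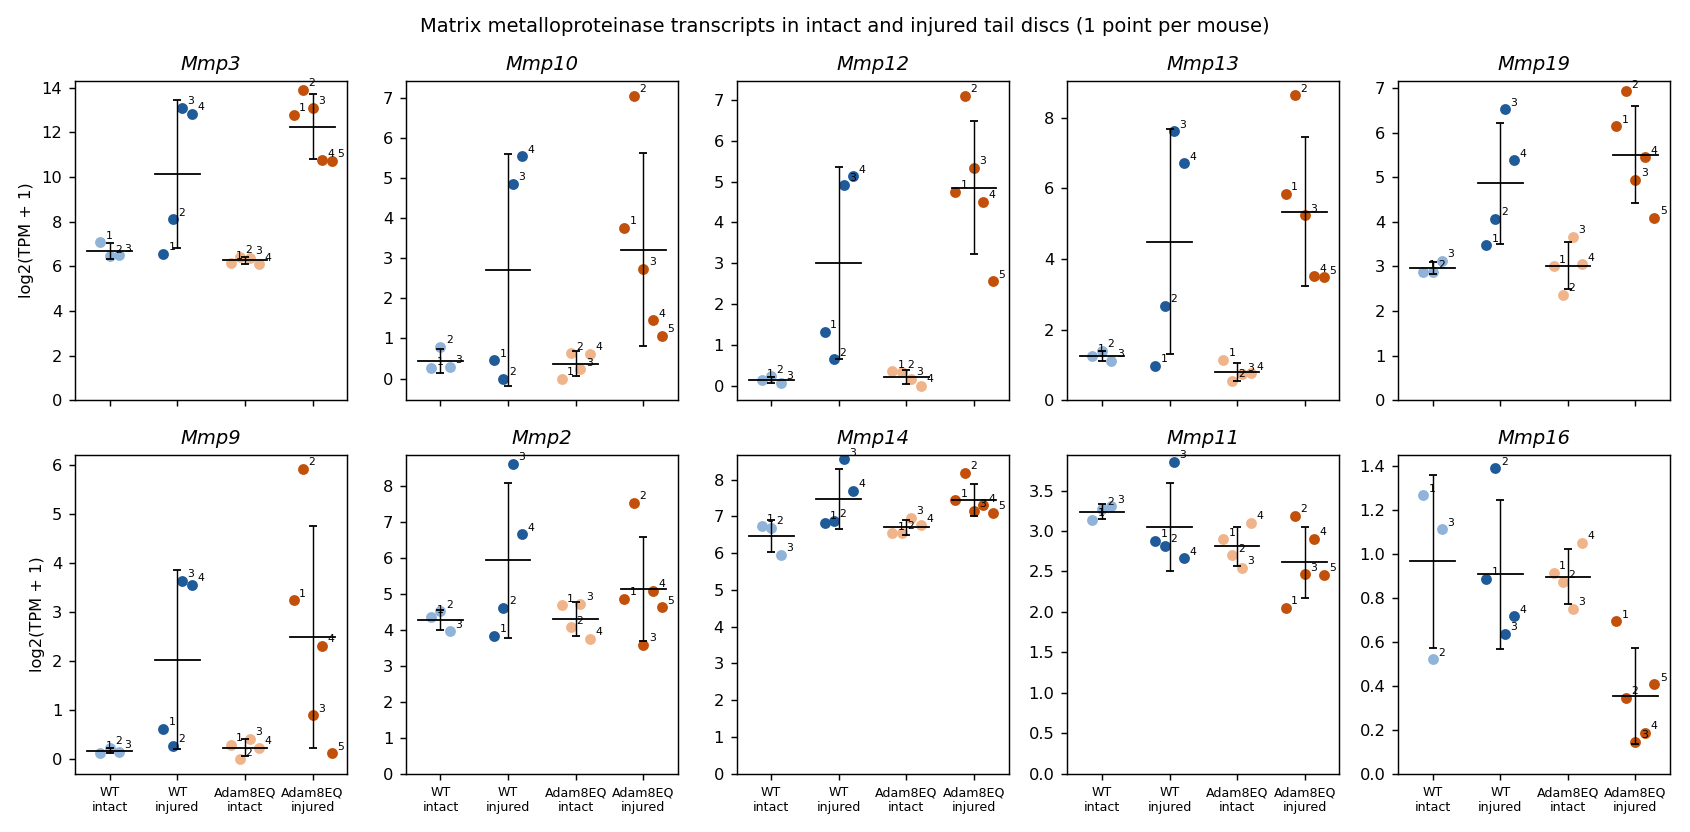
Level of each of the 10 genes as log2(TPM + 1) in every mouse (numbered points), by group, with the group mean (bar) and SD. In Mmp3, Mmp12, Mmp13 and Mmp19 all 5 injured mutants lie above all 4 intact mutants, and the injured wild-type mice spread between the intact level and that of the mutants.

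Mmp3 encodes stromelysin-1, which cuts proteoglycans, fibronectin and several collagens and activates other proenzymes of the family. It stood at 133.8, 86.03 and 88.94 TPM in intact wild-type mice and at 92.24, 274.9, 8725 and 7330 TPM in injured wild-type mice 1 to 4. In mutants it was 70.30, 85.21, 81.88 and 66.58 TPM in intact discs and 7078, 15323, 8744, 1713 and 1692 TPM in injured discs of mutants 1 to 5. The lowest injured mutant thus lay far above the highest intact one, whereas injured wild-type mouse 1 fell among the intact wild-type mice and mouse 2 lay above them but far below mice 3 and 4. Group means were 102.9 ± 26.8 (SD, n = 3), 4106 ± 4565 (SD, n = 4), 75.99 ± 8.955 (SD, n = 4) and 6910 ± 5666 TPM (SD, n = 5) in the order given. Mmp3 rose by 5.99 ± 1.13 in mutants (adjusted p = 0.002023), the change of rank 5 among all tested genes, and mean TPM was 90.9 times that of intact mutants. The difference in the wild type was 3.48 ± 1.29 (adjusted p = 0.2127). Without injured wild-type mouse 1 it was 4.68 ± 1.09 (adjusted p = 0.04588), the only member call in the wild type under any alternative run. In the mutant A8 series alone the change was 7.05 ± 1.87 (adjusted p = 0.03668), and in the M series alone 5.29 ± 1.70 (adjusted p = 0.1043).

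Mmp10 encodes stromelysin-2, which has a similar range of substrates. It was close to 0 in intact discs, at 0.1971, 0.73 and 0.2252 TPM in the wild type and 0, 0.5478, 0.1716 and 0.5398 TPM in mutants. After injury it was 0.3718, 0, 27.81 and 45.44 TPM in wild-type mice 1 to 4 and 12.53, 131.5, 5.688, 1.728 and 1.092 TPM in mutants 1 to 5. Injured and intact mutants did not overlap, but the lowest injured mutants were near the intact ones, and the wild-type groups overlapped. The difference was 2.84 ± 1.22 in mutants (adjusted p = 0.09061) and 2.26 ± 1.39 in the wild type (adjusted p = 0.4052). Without injured mutant 2 the first was 1.88, and without injured wild-type mouse 4 the second was 1.32. It was 5.09 ± 1.80 in A8 mutants (adjusted p = 0.08117) and 1.33 ± 1.46 in M mutants (adjusted p = 0.5986). Mmp3 and Mmp10 are close relatives in sequence. Of the 31-base stretches of the Mmp3 transcripts 14.6% are shared with another gene, mostly with Mmp10, and of those of Mmp10 11.9% are shared, all with Mmp3, so their reads could be divided between them in a way the sources used here do not describe. The level of Mmp10 is the more uncertain, as it was at most a small part of that of Mmp3.

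Mmp13 encodes collagenase-3, the main collagenase of rodent cartilage. Its levels were 1.397, 1.646 and 1.161 TPM in intact and 0.958, 5.402, 196.0 and 104.2 TPM in injured wild-type discs. In mutants they were 1.211, 0.4706, 0.6634 and 0.6955 TPM in intact discs and 56.49, 397.8, 36.65, 10.46 and 10.2 TPM in injured discs. Every injured mutant exceeded every intact one, and injured wild-type mouse 1 was below all intact wild-type mice. Mmp13 rose by 4.55 ± 1.22 in mutants (adjusted p = 0.01246), and the wild-type difference was 3.24 ± 1.39 (adjusted p = 0.2598). Within the naming series it was 6.39 ± 1.89 in A8 mutants (adjusted p = 0.04972) and 3.33 ± 1.60 in M mutants (adjusted p = 0.229). With voom on implied reads it was 5.63 ± 3.10 (adjusted p = 0.1773).

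Mmp12 encodes macrophage elastase, a product mainly of macrophages that cuts elastin. It was nearly absent from intact discs, at 0.0938, 0.1737 and 0.0536 TPM in the wild type and 0.2795, 0.2607, 0.1225 and 0 TPM in mutants, which corresponds to 0 to 6 implied reads. Injured discs had 1.504, 0.5628, 29.34 and 34.13 TPM in wild-type mice 1 to 4 and 25.92, 137.1, 39.34, 21.79 and 4.894 TPM in mutants 1 to 5. Neither genotype showed overlap between injured and intact mice, and injured wild-type mice 1 and 2 lay below every injured mutant. Mmp12 rose by 4.64 ± 0.92 in mutants (adjusted p = 0.002686), and the wild-type difference was 2.86 ± 1.05 (adjusted p = 0.2104). It was 5.58 ± 1.43 in A8 mutants (adjusted p = 0.03332), 4.05 ± 1.29 in M mutants (adjusted p = 0.1013), and 7.72 ± 2.99 with voom on implied reads (adjusted p = 0.05878). Mmp12 shares 157 bases of exon with Mmp1b on the opposite strand, which reached at most 2.23 TPM.

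Mmp19 encodes a secreted enzyme of broad range that cuts basement membrane proteins and aggrecan. It was at 6.372, 6.359 and 7.735 TPM in intact and 10.14, 15.85, 90.98 and 40.64 TPM in injured wild-type discs. In mutants it was at 6.999, 4.15, 11.7 and 7.269 TPM in intact and 69.64, 120.9, 29.62, 42.58 and 16.09 TPM in injured discs. No injured mouse of either genotype overlapped with the intact mice of its genotype. Mmp19 rose by 2.49 ± 0.59 in mutants (adjusted p = 0.00658), and the mean was 7.41 times that of intact mutants. The wild-type difference was 1.90 ± 0.67 (adjusted p = 0.1965). It was 3.85 ± 0.80 in A8 mutants (adjusted p = 0.02194) and 1.47 ± 0.73 in M mutants (adjusted p = 0.2447). Mmp19 shares 789 bases of exon with Tmem198b on the opposite strand (13.9 to 26.0 TPM), and since the use of strand in counting is not given in the sources used here, a part of its low intact level is uncertain.

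**Figure D3:**
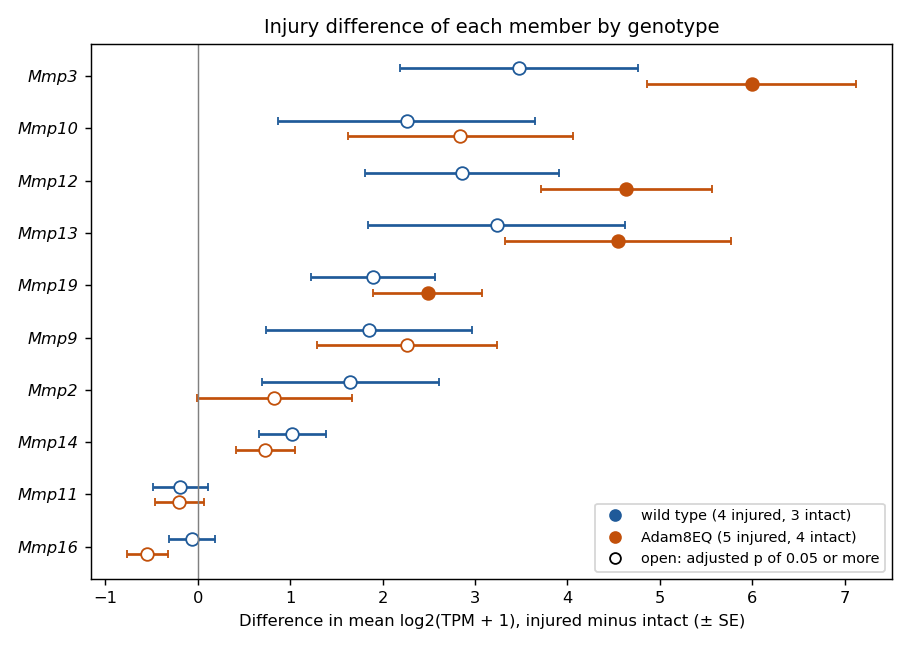
Difference in mean log2(TPM + 1) between injured and intact discs (horizontal axis, ± SE) of each gene, in wild-type and mutant mice, with filled points for adjusted p under 0.05. The 4 filled points are Mmp3, Mmp12, Mmp13 and Mmp19 in mutants. The error bars of the 2 genotypes overlap in Mmp12, Mmp13 and Mmp19 but not in Mmp3. Overlap of such bars is no test of a difference, and the interaction of injury and genotype was not called for Mmp3.

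The gelatinases Mmp9 and Mmp2 cut denatured collagen and type IV collagen, and Mmp9 is known as a product of neutrophils and osteoclasts. Mmp9 was at 0.0959, 0.1776 and 0.1096 TPM in intact and 0.5427, 0.2093, 11.49 and 10.82 TPM in injured wild-type discs. In mutants it was at 0.2286, 0, 0.334 and 0.1751 TPM in intact and 8.436, 59.43, 0.8649, 3.951 and 0.0886 TPM in injured discs. Injured mutant 5 lay inside the intact range, and the other 4 above it. The differences were 2.26 ± 0.98 in mutants (adjusted p = 0.09147) and 1.85 ± 1.11 in the wild type (adjusted p = 0.3934), where the groups did not overlap. The intact levels rested on 0 to 4 implied reads, so the lack of overlap with injured wild-type mice 1 and 2 is within a few reads. The mutant difference passed with library naming as a covariate (2.44 ± 0.89, adjusted p = 0.04963), without injured mutant 5 (2.85, adjusted p = 0.03448) and in the A8 series alone (4.43 ± 1.21, adjusted p = 0.03972). In the M series alone it was 0.79 ± 1.01 (adjusted p = 0.6546), and without injured mutant 2 it was 1.41.

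Mmp2 was at 19.64, 21.82 and 14.61 TPM in intact and 13.29, 23.51, 392.9 and 99.64 TPM in injured wild-type discs. In mutants it was at 24.72, 15.76, 25.51 and 12.41 TPM in intact and 28.05, 183.9, 10.99, 33.01 and 23.71 TPM in injured discs. The groups overlapped in both genotypes, and the high mean after injury rested on injured wild-type mice 3 and 4 and injured mutant 2. The differences were 1.65 ± 0.96 in the wild type (adjusted p = 0.3803) and 0.83 ± 0.84 in mutants (adjusted p = 0.4867). Without injured wild-type mouse 3 the first was 0.75, and without injured mutant 2 the second was 0.23.

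Mmp14 and Mmp16 encode membrane-anchored enzymes, and Mmp14 is known as the activator of the Mmp2 proenzyme. Mmp14 was at 105.9, 101.8 and 61.17 TPM in intact and 111.8, 116.4, 374.4 and 206.6 TPM in injured wild-type discs. In mutants it was at 91.75, 93.26, 124.2 and 107.2 TPM in intact and 171.8, 289.1, 141.5, 157.3 and 136.6 TPM in injured discs. Injured mice lay above intact mice without overlap in both genotypes. The differences of 1.03 ± 0.36 in the wild type (adjusted p = 0.1994) and 0.73 ± 0.32 in mutants (adjusted p = 0.09568) did not pass. Without injured wild-type mouse 3 the former was 0.67. The latter passed in a fit of the mutant groups alone (0.73 ± 0.21, adjusted p = 0.02923) and when injured wild-type mouse 3, which only sets the shared spread, was left out (adjusted p = 0.0337).

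Mmp16 had a lower mean after injury in both genotypes. It was at 1.41, 0.4351 and 1.164 TPM in intact and 0.8494, 1.623, 0.5561 and 0.6448 TPM in injured wild-type discs, and at 0.8868, 0.8345, 0.682 and 1.073 TPM in intact mutant discs. Injured mutants had 0.6173, 0.2715, 0.106, 0.1373 and 0.3255 TPM, all below the intact mutants. The difference was -0.54 ± 0.22 in mutants (adjusted p = 0.07101) and -0.06 ± 0.25 in the wild type (adjusted p = 0.9241). The mutant difference passed with a pseudocount of 0.1 (-1.44, adjusted p = 0.03969), without the variance trend (adjusted p = 0.03866), with library weights (-0.57, adjusted p = 0.04672) and with voom on implied reads (-1.68, adjusted p = 0.01726). Its level rested on 12 to 36 implied reads in intact discs and on 31, 8, 3, 4 and 9 implied reads in injured mutants 1 to 5.

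Mmp11 encodes stromelysin-3, which is processed inside the cell before secretion. It was at 7.788, 8.676 and 8.898 TPM in intact and 6.347, 6.046, 13.47 and 5.323 TPM in injured wild-type discs. In mutants it was at 6.449, 5.502, 4.826 and 7.589 TPM in intact and 3.154, 8.12, 4.522, 6.478 and 4.509 TPM in injured discs. Injured and intact mice overlapped in both genotypes, and the differences were -0.19 ± 0.30 in the wild type (adjusted p = 0.77) and -0.20 ± 0.26 in mutants (adjusted p = 0.6024). Mmp11 shares 155 bases of exon with Chchd10 on the opposite strand (2.52 to 15.2 TPM).

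Counted by groups that did not overlap, 4 members (Mmp9, Mmp12, Mmp14 and Mmp19) stood apart after injury in the wild type, all upward, against 15.6% of all tested genes (9.22% upward). In mutants 7 did, Mmp3, Mmp10, Mmp12, Mmp13, Mmp14 and Mmp19 upward and Mmp16 downward, against 27.2% of genes (12.0% upward and 15.3% downward). Of the members counted here, Mmp9, Mmp10 and Mmp12 passed the filter for testing only through injured mice. By group mean, 8 members had both injured groups above both intact groups. In 6 of these the injured mutants had the higher mean, and in Mmp2 and Mmp14 the injured wild-type mice did. The order of the 2 injured means, and that of the 2 intact means, was not supported by a call in any member. In mutants the step from intact to injured passed in the 4 called genes, and in the wild type it did not pass in any.

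Between genotypes no member was called. In intact discs 0 of 10 passed, against 0.0165% of all tested genes, and 0 had an unadjusted p under 0.05, against 3.78%. The groups did not overlap in Mmp3 and Mmp11, both lower in mutants, against 6.18% of genes (3.41% lower). The mutant minus wild-type difference was -0.41 ± 1.29 for Mmp3 and -0.43 ± 0.30 for Mmp11 (adjusted p = 1.0 in both). These errors and p-values rest on the spread shared by all 4 groups, to which the injured mice add. For Mmp3 the SD of log2(TPM + 1) was 0.352 and 0.169 in intact wild-type and mutant mice. In injured wild-type and mutant mice it was 3.32 and 1.44. In injured discs 0 of 10 passed, against 0.918%, and Mmp16 alone had an unadjusted p under 0.05 (0.0226), against 20.3% of genes, with a difference of -0.55 ± 0.22 (adjusted p = 0.1738). The groups overlapped in all 10, against 4.77% of genes that did not overlap. The largest differences were 2.11 ± 1.13 for Mmp3 (adjusted p = 0.3088) and 1.85 ± 0.92 for Mmp12 (adjusted p = 0.2766). Without injured wild-type mouse 1 that of Mmp3 was 0.90, and without injured wild-type mouse 2 that of Mmp12 was 1.06. The others were 0.85 ± 1.22 for Mmp13, 0.65 ± 0.59 for Mmp19, 0.50 ± 1.22 for Mmp10, 0.47 ± 0.98 for Mmp9, -0.44 ± 0.26 for Mmp11 and -0.79 ± 0.84 for Mmp2. That of Mmp14 was -0.05 ± 0.32 and turned to 0.06 under median-of-ratios scaling.

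Whether the response to injury differed between the genotypes was asked by the interaction of injury and genotype. It was called for 0 of 10 members, against 0.0% of all tested genes, and 0 members had an unadjusted p under 0.05, against 8.18% of genes. For Mmp3 the mutant response exceeded the wild-type response by 2.52 ± 1.71 (adjusted p = 0.7341), and for Mmp12 by 1.78 ± 1.40 (adjusted p = 0.767). These were 1.31 for Mmp3 without injured wild-type mouse 1 and 0.99 for Mmp12 without injured wild-type mouse 2. A call in mutants and none in the wild type therefore does not show a different response for any of the 10.

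High levels gathered in the same mice. Injured mutant 2 had the highest level of all 16 mice in 6 members, and was the highest injured mutant in 9. Injured mutant 5 was the lowest in 7. In the wild type, injured mice 3 and 4 both lay above mice 1 and 2 in 8 members. The library names of mice 1 and 2, and those of mice 3 and 4, carry adjacent numbers, so this split cannot be told apart from that of the names. The median difference of the 10 from the mean of the intact mice of the same genotype was -0.04, 0.42, 3.95 and 2.90 in injured wild-type mice 1 to 4 and 3.06, 4.80, 1.29, 1.57 and 0.55 in injured mutants 1 to 5, on the log2(TPM + 1) scale. Wild-type mice 1 and 2 thus had smaller median differences than every injured mutant, and mice 3 and 4 larger ones than mutants 3, 4 and 5. How often the same mice were highest or lowest over all tested genes was not determined.

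Markers of neutrophils and macrophages were also high in injured wild-type mice 3 and 4 and in injured mutant 2. Summed over 11 neutrophil markers the level was 13.4 to 19.5 TPM in intact wild-type mice, 11.25, 12.52, 188.2 and 143.0 TPM in injured wild-type mice 1 to 4, 6.2 to 11.4 TPM in intact mutants and 86.91, 1014, 45.52, 91.11 and 18.94 TPM in injured mutants 1 to 5. Of 8 neutrophil markers that could be tested, 4 were called higher in injured mutants, and 0 were called for wild-type injury. Beside this and the marker counts that follow, 13.1% of all tested genes were called higher and 17.7% lower for injury in mutants. For injury in the wild type 0.116% were called. The defining genes Mpo and Ly6g were at 0 in all intact mice of both genotypes, Mpo also in injured wild-type mice, Ltf in intact mutants, and Elane was at 0 in injured mutants. Over 8 macrophage markers the sum was 114.2 to 134.7 TPM, then 158.1, 193.9, 1391 and 748.0 TPM in the wild type, and 115.5 to 177.4 TPM, then 650.7, 1994, 441.4, 1065 and 348.7 TPM in mutants. Of the 8, 7 were called higher in mutants and 0 in the wild type, and none was at 0 in a whole group. Osteoclast markers summed to 67.47 to 93.65 TPM in intact mice. In injured discs they were at 77.96 to 226.1 TPM in the wild type and 130.2 to 263.7 TPM in mutants. Most of this was Ctsk, with means of 76.31 and 122.9 TPM in intact and injured wild-type mice and 80.99 and 162.8 TPM in mutants. Of 3 tested markers 2, Ctsk and Atp6v0d2, were called higher in mutants, and Acp5 was not (adjusted p = 0.05103). Among the called markers S100a8, S100a9, Csf3r, Cxcr2, Fcgr1 and Atp6v0d2 would not have passed the filter by intact mice alone. Calcr, Ocstamp, Dcstamp and Oscar had group means of at most 1.085 TPM and were too low to test. Other blood cell sets showed that order only in part. Erythroid markers summed to 176.4, 106.3, 1445 and 710.8 TPM in injured wild-type mice 1 to 4, so mice 3 and 4 were again higher. They were at 715.5 TPM in intact wild-type mouse 1, 527.2 TPM in injured mutant 2 and 1150 TPM in injured mutant 4, with 0 of 3 called in mutants. T cell markers (at most 2.114 TPM) and mast cell markers were also higher in injured wild-type mice 3 and 4 than in mice 1 and 2. Neither set was highest in injured mutant 2 among the injured mutants. B cell markers stayed at 0.8788 to 3.95 TPM in all mice. The part of these cells in the differences of Mmp9, Mmp12 and the other genes was not tested.

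**Figure D4:**
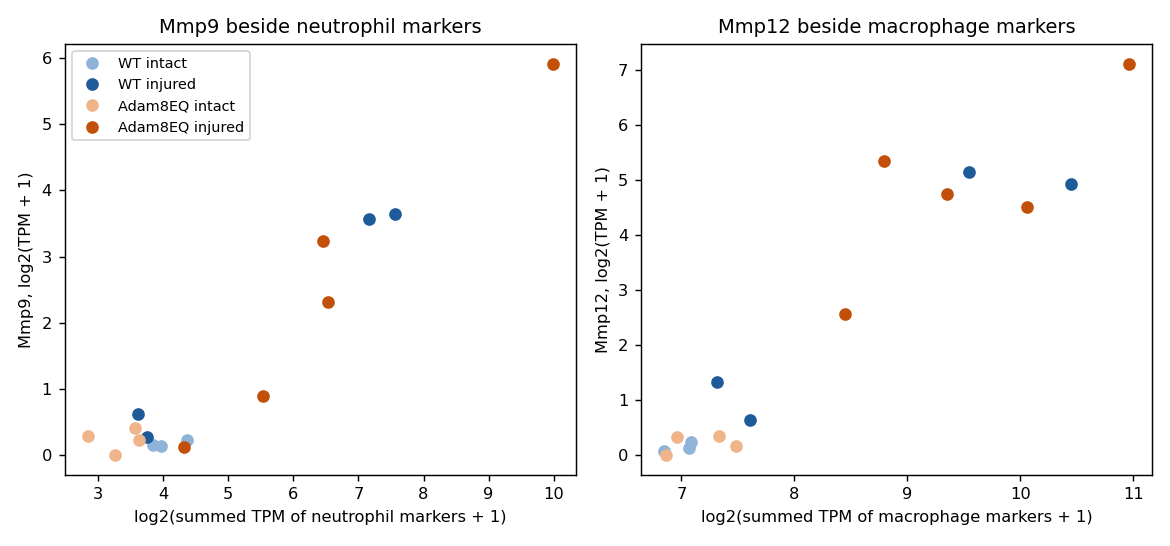
Level of Mmp9 against the summed neutrophil markers and of Mmp12 against the summed macrophage markers, all on a log2 scale after adding 1 TPM, 1 point per mouse. Injured mutant 2 is at the top right of both panels, with 1014 TPM of neutrophil and 1994 TPM of macrophage markers, and injured wild-type mice 1 and 2 lie near the intact mice. The order of the other injured mutants differs between Mmp12 and the macrophage markers. Mutant 3 has 39.34 TPM of Mmp12 with 441.4 TPM of markers, and mutant 4 has 21.79 TPM with 1065 TPM.

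Endothelial markers, of which 0 of 5 were called in mutants, summed to 173.3 and 57.5 TPM in injured wild-type mice 3 and 4 and to 61.73 TPM in injured mutant 2, against 2.122 to 25.37 TPM in every other mouse. These are the mice in which Mmp2 was high, and the part of such cells in that level was not tested. Disc markers differed by set in injured mutants. Of 4 annulus and tendon markers 4 were called lower after injury in mutants, and of 5 nucleus and notochord markers 3 were, against 17.7% of all tested genes. Their sums were 538.7 to 1525 TPM and 553.0 to 3345 TPM in injured mutants. Of 6 cartilage markers 2 were called lower, beside the same share of 17.7%. The cartilage sum was 9003, 3964, 12113, 12465 and 12532 TPM in injured mutants 1 to 5. Osteoblast markers summed to 35.3 to 96.4 TPM in intact and 8.07 to 36.8 TPM in injured mutants, and 1 of 4, Alpl, was called lower (adjusted p = 0.001309). In the wild type they summed to 49.4 to 75.2 TPM in intact and 21.8 to 82.4 TPM in injured discs, with 0 called. Alpl was also called lower in mutants between genotypes in injured discs (adjusted p = 0.04898). Skeletal muscle markers were not called for injury in either genotype.

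The genes whose levels followed each member most closely over the 16 libraries were found by the root-mean-square difference of centred log2(TPM + 1). For Mmp3, whose own spread was 3.02, they were Saa3 (0.34), Cxcl1 (0.60) and Cxcl2 (0.65), an acute-phase protein and a pair of neutrophil-attracting chemokines. For Mmp12 (own spread 2.41) they were Adam8 (0.45), Arg1 (0.48) and Msr1 (0.55). Adam8, the mutated gene, had 1.51 ± 0.24 (SD, n = 3) and 32.6 ± 32.7 TPM (SD, n = 4) in intact and injured wild-type discs and 1.55 ± 0.95 (SD, n = 4) and 87.3 ± 100.6 TPM (SD, n = 5) in those of mutants, so its transcript was present in mutants. For Mmp9 (own spread 1.73) they included Slfn4 (0.30) and Cyp4f18 (0.40). For Mmp13 (own spread 2.65) they were Csf3r, Saa3 and Cxcl5, at 0.74 each, and Csf3r encodes the receptor of granulocyte colony-stimulating factor. For Mmp10 they were Fpr2, Ccl4 and Ptgs2, for Mmp19 Havcr2, Il1rl1 and Arl4c, and for Mmp2 Ly6e, Kdr and Emcn, the last 2 of which are endothelial markers. Mmp14 was followed by Prag1 (0.19), Sh3pxd2b (0.22) and Pfn1 (0.23). Within the family the smallest difference was that of Mmp11 and Mmp16 (0.49), which varied little. It exceeded their own spreads (0.41 and 0.35), so it does not show that they moved together. Among members that varied more, Mmp9 and Mmp19 (0.73), Mmp9 and Mmp10 (0.77) and Mmp3 and Mmp13 (0.85) were near each other. These are descriptions over libraries that share groups and mice.

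Of the 13 other matrix metalloproteinases 9 could be tested, and 2 rose in injured mutants. Beside this and the list counts that follow stand the shares over all tested genes in this comparison, 13.1% called higher and 17.7% called lower, so 2 of 9 is near the background. Mmp28, the enzyme epilysin, went from 15.1 ± 4.03 (SD, n = 4) to 30.6 ± 11.8 TPM (SD, n = 5), a change of 0.92 ± 0.31 (adjusted p = 0.03815). Mmp25, a membrane-type enzyme of leukocytes, was listed at 0 in all 7 intact mice and at 0.465 to 3.75 TPM in injured mutants (change 1.20 ± 0.42, adjusted p = 0.04202). It passed the filter for testing only through injured mice. Leaving out single mice left between 0 and 2 of the 9 called. The median change of the list was 0.32. In the chromosome 9 cluster, Mmp8 reached at most 9.1 TPM (change 0.75 ± 0.54 in mutants, adjusted p = 0.3125), and Mmp1a, Mmp1b, Mmp20 and Mmp7 were too low to test.

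The inhibitors moved in both directions in injured mutants, 2 of 6 tested up and 3 down, with a median change of -0.08. Timp1 rose by 4.24 ± 0.43 (adjusted p = 0.0001274), from 32.7 ± 9.89 (SD, n = 4) to 642.5 ± 204.3 TPM (SD, n = 5). It was the 1 gene of these lists called in the wild type, by 3.33 ± 0.50 (adjusted p = 0.02479), a call lost in a fit of the wild-type groups alone, with the replicate block, with mutants of either naming series alone, with the muscle score as a covariate and with voom on implied reads. Timp4 fell by 3.02 ± 0.42 (adjusted p = 0.0004823) and Timp2, which takes part in the activation of Mmp2 by Mmp14, fell by 1.25 ± 0.18 (adjusted p = 0.0006955). Tfpi2, a serine protease inhibitor that also acts on metalloproteinases and was listed at 0 in intact mutants, rose by 1.58 ± 0.45 (adjusted p = 0.01675), and Reck, a membrane-anchored inhibitor of Mmp9, Mmp2 and Mmp14, fell by 0.88 ± 0.17 (adjusted p = 0.002519). Timp3, at 328.2 ± 103.3 (SD, n = 4) and 625.4 ± 312.0 TPM (SD, n = 5), did not pass (0.71 ± 0.43, adjusted p = 0.2305).

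Of 11 tested genes of proenzyme activation 5 rose and 3 fell in injured mutants, with a median change of 0.37. Plau, the urokinase plasminogen activator, rose by 4.12 ± 0.67 (adjusted p = 0.0009723) and its receptor Plaur by 3.30 ± 0.47 (adjusted p = 0.0005615). The convertase gene Pcsk6 fell by 1.48 ± 0.28 (adjusted p = 0.001989). In the M series alone 2 of the 11 were called, against 3.0% of all tested genes in that fit.

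Of 12 tested cytokines and receptors known to induce metalloproteinases 8 rose and 1 fell in injured mutants, with a median change of 1.30. Lif rose by 3.99 ± 0.76 (adjusted p = 0.002131), Il1b by 3.30 ± 0.98 (adjusted p = 0.02024), Il6 by 3.07 ± 0.53 (adjusted p = 0.001302) and Tnf by 2.84 ± 0.68 (adjusted p = 0.006932). In the M series alone 2 of the 12 were called, against 3.0% of all tested genes in that fit. Of 18 transcription factors that act on metalloproteinase promoters 9 rose and 2 fell, with a median change of 0.50. The AP-1 gene Fosl1 rose by 4.34 ± 0.73 (adjusted p = 0.001181) and Junb by 1.94 ± 0.38 (adjusted p = 0.002338), while Fos (0.20 ± 1.16, adjusted p = 0.913) and Jun (-0.16 ± 0.35, adjusted p = 0.7559) did not pass. Cebpb rose by 2.32 ± 0.48 (adjusted p = 0.003195) and Nfkbiz, a partner of NF-kappaB, by 2.13 ± 0.34 (adjusted p = 0.0009661). Between genotypes in injured discs 1 gene of all these lists was called, Fosl2, at 122.4 TPM in the wild type and 175.1 TPM in mutants (0.51 ± 0.10, adjusted p = 0.03372).

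Of 19 matrix genes whose products the enzymes cut, 5 rose and 5 fell in injured mutants (13.1% and 17.7% of all tested genes did), with a median change of -0.13. Lum, lumican, rose by 4.08 ± 1.03 (adjusted p = 0.009108) and Col3a1, a collagen of repair tissue, by 2.15 ± 0.68 (adjusted p = 0.02697). Comp, a cartilage matrix protein, fell by 2.54 ± 0.47 (adjusted p = 0.001854) and Fmod, fibromodulin, fell by 1.70 ± 0.40 (adjusted p = 0.006462). Col2a1 (-0.04 ± 0.58, adjusted p = 0.9687) and Acan (-0.29 ± 0.35, adjusted p = 0.563), the main collagen and proteoglycan of cartilage and nucleus, did not pass. Of the 2 receptors that take up the enzymes or collagen fragments, Mrc2 fell by 1.29 ± 0.25 (adjusted p = 0.002356) and Lrp1 did not pass (-0.04 ± 0.13, adjusted p = 0.8362). In the wild type no gene of these lists other than Timp1 was called, against 0.116% of all tested genes.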

How the data were processed

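The authors deposited 1 table of TPM values for the 16 libraries, with Ensembl identifiers and gene names. Ribosomal RNA was depleted, per the labels' protocols, although the molecule field reads polyA RNA. Per the submitters' processing notes the build was GRCm38 and bcl2fastq 2.20 was used. The aligner, the counting and its use of strand are not given in the sources used here. Groups and mouse numbers came from the titles, since the genotype field of the wild type is cut short.

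Changes were tested with limma 3.58.1 in R 4.3.3 (lmFit, eBayes with a trend) on log2(TPM + 1), with 1 fit for the 4 groups so that they share an estimate of spread. The 24188 genes tested had 1 TPM or more in 3 or more libraries, and p-values were adjusted over all of them (Benjamini-Hochberg, threshold 0.05). On simulated data for injury in mutants (23451 genes), it recovered 86%, 90% and 100% of genes changed by log2 values of 1, 2 and 4, with 15 false calls. The changed genes all had a mean log2(TPM + 1) above 4, and each gene was given the same spread in every group. That recovery therefore does not carry over to low members such as Mmp9 or Mmp16, or to members with unequal spread such as Mmp3. Positions came from GENCODE M21, which held 99.5% of the identifiers. Depth was reckoned by dividing TPM by the worth of 1 read, given exon length. Of values below 20 such implied reads 94.5% to 95.4% came out whole, with a tolerance of 0.05. Errors given are between mice.

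The members, gene lists and tests were chosen with earlier results of these data known. All 10 members are named, and of each list the called genes with the largest changes, at most 4. Timp3, Reck, Mmp8, Fos, Jun, Col2a1, Acan and Lrp1 were named besides, after their values were seen. Likeness took the 3 nearest genes with a symbol. Some genes that these rules name are not reported here. Alternatives were a pseudocount of 0.1, other filters and scalings, no trend, library weights, the compared groups alone, a replicate block, mutant naming, a muscle score and leaving out each mouse, and voom on implied reads was added after seeing the data. Python 3.11.15 with matplotlib 3.10.9 drew the figures.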

Additional observations from a re-analysis of the deposited data

Results flagged for a closer look

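Of 30 sets of 4 or 5 mice checked (10 genes in the 3 groups of that size), 7 held a mouse far from the others by Dixon's criterion at the 95% level, which chance gives in about 1 of 20 sets of normally distributed values. The rate for skewed values such as these TPM levels was not determined, nor was the rate over all tested genes. Injured mutant 2 was the far mouse in 6 of them. It had 183.9 TPM of Mmp2, 59.43 TPM of Mmp9, 131.5 TPM of Mmp10, 137.1 TPM of Mmp12, 397.8 TPM of Mmp13 and 289.1 TPM of Mmp14. The next injured mutant was at 33.01, 8.436, 12.53, 39.34, 56.49 and 171.8 TPM for the same genes. These 6 values come from 1 library and are not separate signs. Without it the mutant injury differences were 3.72 for Mmp13 and 4.07 for Mmp12, both still called. The remaining case was Mmp11 in injured wild-type mouse 3, at 13.47 TPM with the next mouse at 6.347 TPM.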

How the results depend on the processing

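Mmp3, Mmp12, Mmp13 and Mmp19 were called for injury in mutants in all 16 fits that left out 1 mouse, and 0 members were called with M mutants alone. Leaving out single mice gave 0 to 1 members for injury in the wild type. No member was called between genotypes or for the interaction under any alternative run. The compared groups alone give no interaction, and Mmp16 was not tested with the filter at a mean of 5 TPM. Values of low genes such as Mmp9, Mmp10 and Mmp12 in intact discs rest on a few implied reads. Except where the construction shows it (fewer mice), the cause of a shift was not tested.

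Genes called for injury in the wild type numbered 28, and 64 with a pseudocount of 0.1, 11 with no filter, 17 with median-of-ratios scaling, 13 without the trend, 77 with library weights, 4 with only the groups compared, 7 with A8 mutants, 3 with the muscle score, 4 with voom, and 2 (without intact wild-type mouse 1) to 452 (without injured wild-type mouse 1) with a mouse left out. List genes called there (1) were 0 with only the groups compared, the replicate block, M or A8 mutants, the muscle score or voom, and 0 to 8 with a mouse left out. For injury in mutants the 7438 genes became 725 with M and 3583 with A8 mutants. For genotype in intact discs 4 genes became 8 with library weights, 2 with M mutants, 8 with A8 mutants and 1 to 7 with a mouse left out. For genotype in injured discs 222 became 86 with no filter, 93 with quantile normalization, 1070 with library weights, 5 with only the groups compared, 2 with A8 mutants, 423 with the muscle score, 556 with voom, and 7 (without injured wild-type mouse 2) to 2253 (without injured wild-type mouse 3) with a mouse left out. The interaction had 0 genes, 4 with library weights and 0 to 15 with a mouse left out. The share of calls that were higher was 92.9% for injury in the wild type and 77.8% after quantile normalization, and with only the groups compared 2 of the 4 calls were higher. For injury in mutants it was 42.6%, and 52.1% with median-of-ratios scaling. For genotype in injured discs it was 20.7%, 47.5% with median-of-ratios scaling and 34.4% after quantile normalization.

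Of the lists in injured mutants, the other metalloproteinases (2 called) had 0 with no filter, 1 with the filter at a mean of 5 TPM, 0 with M or A8 mutants and 0 to 2 with a mouse left out. With M mutants, 2 genes of proenzyme activation, 2 cytokines and receptors, 3 transcription factors, 1 matrix substrate and 0 uptake receptors were called. With A8 mutants, 3 inhibitors and 4 substrates were.

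Of the differences between genotypes in injured discs, none of them called, these changed sign. With M mutants Mmp9 was at -0.92, Mmp19 at -0.038, Mmp13 at -0.42 and Mmp10 at -0.96. With A8 mutants Mmp2 was at 0.26 and Mmp14 at 0.32. Mmp14 was at 0.060 with median-of-ratios scaling and 0.0083 with library weights. With a mouse left out the ranges were -0.38 to 1.06 for Mmp9, -1.49 to 0.10 for Mmp2, -0.27 to 0.31 for Mmp14, -0.33 to 1.89 for Mmp13 and -0.46 to 1.44 for Mmp10. The wild-type injury difference of Mmp16 ranged from -0.28 to 0.091.

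Replicate numbers are shared between groups but belong to different mice, and deviations of same-numbered mice correlated at -0.22 to 0.078 and not always best with their own number, so no pairing was taken. With the replicate block, genes called were 5 for injury in the wild type, 2 for genotype in intact and 11 in injured discs. In injured mutants 1 other metalloproteinase was called with the block, against 25.6% of all tested genes. Mmp14 between genotypes in injured discs was at 0.033 with it. The block left Mmp3, Mmp12, Mmp13 and Mmp19 called for injury in mutants.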
